A study of Mus musculus with 16 samples.

Results

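The Janus kinases and STAT factors examined here were 9 genes of 47069 in the count table, found by gene symbol: the 4 kinases Jak1, Jak2, Jak3 and Tyk2, and the 5 transcription factors Stat2, Stat3, Stat4, Stat5a and Stat6. Each symbol matched 1 row, and the other STAT genes are not analysed here. RNA-seq was performed on macrophages derived from bone marrow (BMMs), taken from C57BL/6 mice aged 8 to 10 weeks, grown for 7 days in medium conditioned by L929 cells, primed overnight with 10 ng/mL IFNγ, and stimulated for 1 hr with 100 ng/mL LPS together with immune complexes (ICs) of ovalbumin and IgG. One group received DAPT at 25 µM, a γ-secretase inhibitor (GSI) that blocks the cleavage step of Notch receptors, and the other its vehicle, DMSO at 0.01%. The study's methods place the inhibitor or vehicle overnight before activation, while several of its figure legends give a shorter pretreatment. Both groups were wild type and both carried IFNγ, LPS and ICs, so no unprimed or unstimulated sample enters any comparison. γ-Secretase also cuts other membrane proteins, and the inhibitor acts on every cell in the dish. Each group had 2 libraries, each sequenced in 4 runs that were summed, and the labels do not say whether the 2 libraries came from separate mice or cultures, so p-values measure only the spread between these libraries.

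JAKs are tyrosine kinases bound to the inner tails of cytokine receptors. When a cytokine joins 2 receptor chains, the paired kinases activate each other and phosphorylate the receptor, STAT proteins dock there and are phosphorylated in turn, and STAT dimers move to the nucleus and bind DNA. Jak1 serves interferon receptors and many interleukin receptors, Jak2 serves IFNγ, GM-CSF, IL-3 and IL-12 receptors, Tyk2 serves type I interferon, IL-10 and IL-12 receptors, and Jak3 binds the common γ chain. In macrophages, IL-10 acts through STAT3, IL-4 and IL-13 through STAT6, GM-CSF through STAT5, IL-12 through STAT4, and type I interferon through the ISGF3 complex, which holds STAT2 and IRF9. The assay counts RNA, so neither kinase activity nor STAT phosphorylation was measured.

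STAT dimers bind the palindrome TTCNNNGAA (a GAS site), STAT6 also binds the same palindrome with one more base in its centre (TTCNNNNGAA), and ISGF3 binds an element whose core is GAAANNGAAA (the ISRE core). These 3 motifs, and TGGGAA, the core bound by the Notch partner RBPJ, were searched on both strands in the 250 bases before each RefSeq start of the members on GRCm38.p6. The 9 genes had 11 such windows, and 2 of the windows held a match. Of all 32851 promoters searched, 7.02% held a GAS site, 5.85% the STAT6-type site, 2.98% the ISRE core and 21.6% the RBPJ core. The sequences of both windows with a match are shown because they belong to the 1 member that was higher with GSI and to a member that was lower, and the Jak2 window is shown as that of a lower member with no match. Capitals mark the matches. The windows were the 250 bases at chr10:128270248-128270497 (plus strand) for Stat2, at chr1:52007990-52008239 (plus strand) for the second Stat4 start, and at chr19:29251553-29251802 (plus strand) for Jak2, each read 5′ to 3′.

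Stat2 promoter: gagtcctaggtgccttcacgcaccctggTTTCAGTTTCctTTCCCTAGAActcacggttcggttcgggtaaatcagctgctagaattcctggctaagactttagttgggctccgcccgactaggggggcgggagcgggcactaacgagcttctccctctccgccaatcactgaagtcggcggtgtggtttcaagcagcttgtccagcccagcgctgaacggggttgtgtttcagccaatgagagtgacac

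Stat4 second promoter: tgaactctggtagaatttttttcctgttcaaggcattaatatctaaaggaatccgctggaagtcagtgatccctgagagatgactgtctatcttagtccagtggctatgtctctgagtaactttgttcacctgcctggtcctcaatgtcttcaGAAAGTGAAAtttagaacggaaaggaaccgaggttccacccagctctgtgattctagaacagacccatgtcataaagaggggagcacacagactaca

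Jak2 promoter: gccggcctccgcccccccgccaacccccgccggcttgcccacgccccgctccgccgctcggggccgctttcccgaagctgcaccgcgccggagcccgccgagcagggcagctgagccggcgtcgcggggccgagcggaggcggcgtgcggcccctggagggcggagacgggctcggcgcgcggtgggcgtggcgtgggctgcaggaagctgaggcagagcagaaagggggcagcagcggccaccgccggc

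The Stat2 window held the ISRE core at -222 from the start and a STAT6-type site at -210. The second Stat4 window held the ISRE core at -97, and the window of the first Stat4 start held none of the 4 motifs. None of the 11 windows held the GAS site or the RBPJ core, which says only that these letters are not in these windows. As a comparison, 7 of the 16 type I interferon target genes with a promoter in the table held the ISRE core, as did 7 of 16 type II interferon target genes.

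Total counts were 42694655 and 56932059 in the DMSO libraries, against 48483661 and 49511733 in the GSI libraries. At these depths 3 counts in a library amount to 0.0527 to 0.0703 CPM (counts per 1000000 counts), a limit that covers counting error only. The lowest member count in any library was 123, for Stat4. Runs of 1 library differed no more than by counting (chi-square per degree of freedom 1.01 to 1.03), while the 2 libraries of a group differed by more (14.7 with DMSO and 16.6 with GSI). Of 9 macrophage marker genes, 6 were lower and 1 was higher with GSI, and their summed level was 12716 and 12907 CPM with DMSO against 9893 and 10802 CPM with GSI. The 6 B cell markers summed to 10.7 and 10.3 CPM with DMSO against 3.68 and 3.38 CPM with GSI, nearly all of it Ighm, and the neutrophil, mast cell and fibroblast lists to between 0.124 and 1.49 CPM in each library. The part of these cells in the results below was not tested. In bulk RNA, fewer cells of a type and less RNA per cell cannot be told apart.

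**Figure D1:**
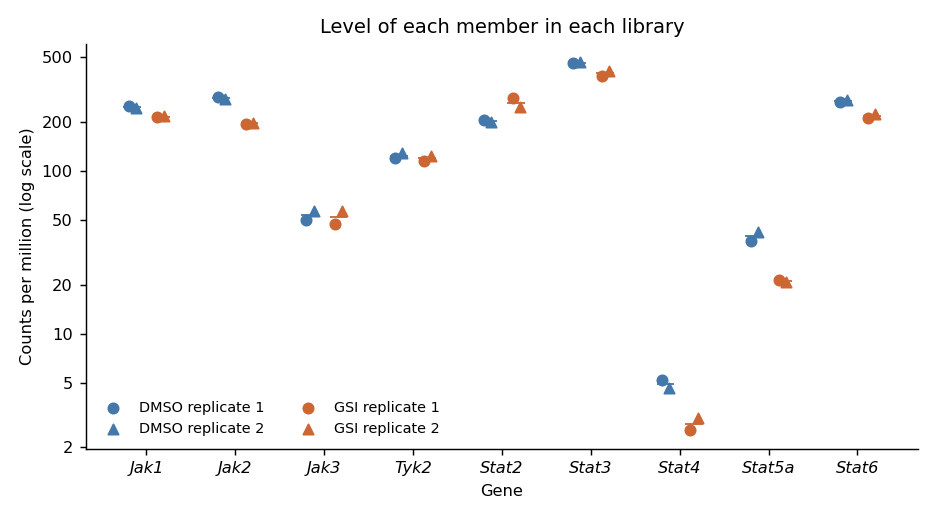
Levels in CPM (log axis) of the 9 genes in each of the 4 libraries, with DMSO in blue and GSI in orange, circles for replicate 1, triangles for replicate 2 and a short line at each group mean. The groups stand apart for 7 genes and overlap for Jak3 and Tyk2, and the mean DMSO levels run from 4.92 CPM for Stat4 to 463 CPM for Stat3.

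GSI was compared with DMSO by the quasi-likelihood test of edgeR over all 13211 genes with enough counts, with Benjamini-Hochberg adjustment over all of them, and a gene was called at an adjusted p (FDR) under 0.05. All 9 members were tested. Of these, 6 were lower with GSI (Jak1, Jak2, Stat3, Stat4, Stat5a and Stat6), 1 was higher (Stat2), and 2 were not called (Jak3 and Tyk2). Among all genes tested, 40.8% were called, 21.9% lower and 19% higher, and among the 7581 genes averaging at least 10 CPM the share was 48.1%. With 9 genes, the called share of the members is above that background, and no test of the list was made. With upper quartile normalization the calls of Jak1 and Stat3 were lost, and 5 members were called. Jak1, Jak2, Stat2, Stat3 and Stat6 each had a higher mean level than at least 94.0% of genes tested. The 10 CPM background is therefore not matched to the members in level. The median log2 fold change of the members was -0.21, against 0.01 over all genes tested.

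The changes were modest in size. None of the members had an FDR under 0.05 together with a log2 fold change beyond 1.5 in either direction. These are the limits the study set, and 2.91% of all genes tested passed them in the present fit. The 7 members with an unadjusted edgeR p under 0.05 were the same 7 that were called, so that count adds nothing to the calls. With a limit of 1.5-fold, Stat4 and Stat5a passed, as did 14.1% of all genes tested. By absolute log2 fold change, Jak1 exceeded 42.1% and Stat3 45.0% of all genes tested, although both were called. Tyk2 exceeded 13.1% and Jak3 9.88%. Stat6, Stat2, Jak2, Stat4 and Stat5a exceeded 59.8%, 67.1%, 79.0%, 90.2% and 92.2%. The GSI and DMSO libraries did not overlap for 7 members, a share near the 70.6% of all genes tested. The levels of the 9 members summed to 1682 and 1693 CPM with DMSO against 1470 and 1504 CPM with GSI.

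**Figure D2:**
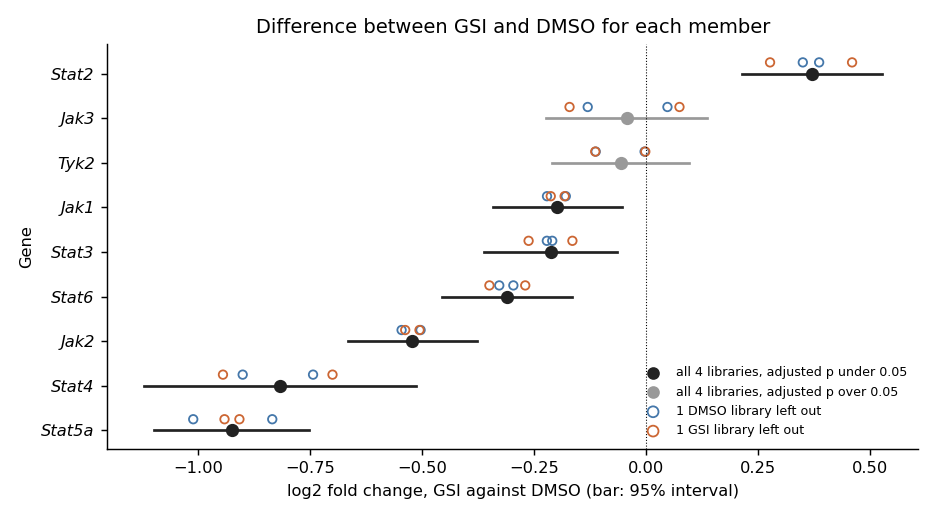
The log2 fold change of each gene between GSI and DMSO (filled point) with its 95% interval, black where the FDR was under 0.05 and grey otherwise, and open circles for the same value with 1 library left out. Stat5a and Stat4 lie lowest at -0.92 and -0.82, Stat2 alone lies above 0 at 0.37, and the circles of Jak3 fall on both sides of 0.

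Jak2 changed most among the kinases. Jak2 (ENSMUSG00000024789, chr19:29251828-29313080, plus strand, GRCm38) serves the GM-CSF receptor and, together with Jak1, the IFNγ receptor. Its level was 286 and 278 CPM with DMSO against 194 and 199 CPM with GSI. Both GSI libraries lay well under both DMSO libraries, a log2 fold change of -0.52 ± 0.07 (SE, n = 2 per group; 95% interval -0.67 to -0.38; edgeR FDR 4.24e-06), or -30.3% on the linear scale. With any 1 library left out the log2 value stayed between -0.55 and -0.50. No annotated exon of another gene overlaps Jak2.

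Jak1 (ENSMUSG00000028530, chr4:101152367-101265282, minus strand), which pairs with another JAK at interferon, IL-10 and gp130 family receptors, had 251 and 244 CPM with DMSO against 214 and 218 CPM with GSI. The groups did not overlap, and the difference was smaller than that of Jak2, at a log2 fold change of -0.20 ± 0.07 (95% interval -0.34 to -0.05; edgeR FDR 0.0266). The call was not stable: the edgeR FDR was 0.164 without DMSO replicate 1, 0.0735 without DMSO replicate 2, 0.0805 without GSI replicate 1 and 0.0381 without GSI replicate 2, and 0.0656 with upper quartile normalization. The direction was lower each time.

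The ratio of Jak1 to Jak2 counts within a library, which does not depend on library scaling, was 0.878 and 0.879 with DMSO against 1.10 and 1.10 with GSI. Jak2 thus had more counts than Jak1 in both DMSO libraries and fewer in both GSI libraries. The log2 ratio differed by 0.32 between the groups, far more than between replicates, and across single runs it ranged from -0.21 to -0.15 with DMSO and from 0.10 to 0.17 with GSI. The ratios are given as values with no test, and with 2 libraries against 2 an exact two-sided permutation test cannot go below p = 0.333.

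Tyk2 (ENSMUSG00000032175, chr9:21104068-21131243, minus strand), the partner of Jak1 at type I interferon and IL-10 receptors, had 120 and 129 CPM with DMSO against 115 and 124 CPM with GSI. The groups overlapped, and the log2 fold change was -0.06 with a 95% interval from -0.21 to 0.10 (edgeR FDR 0.567), so a fall of up to 13.4% lies within the interval. With any 1 library left out the log2 value lay between -0.11 and -0.0012. Tyk2 shares 554 exon bases with 1700084C06Rik on the opposite strand, a gene with 3 to 16 counts per library.

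Jak3 (ENSMUSG00000031805, chr8:71676296-71690575, plus strand), which is found mainly in blood cells and binds the common γ chain Il2rg, had 50.2 and 56.8 CPM with DMSO against 47.5 and 56.4 CPM with GSI. Replicates differed more than groups, and the log2 fold change was -0.04 (95% interval -0.22 to 0.14; edgeR FDR 0.727). It changed sign with the libraries used, at 0.05 without DMSO replicate 2 and 0.08 without GSI replicate 1. Jak3 shares 404 exon bases with the same-strand gene Insl3, which had 5 to 15 counts per library. The Jak1 to Tyk2 ratio was 2.10 and 1.89 with DMSO against 1.86 and 1.76 with GSI, close to each other but not overlapping, while the Jak3 to Jak1 ratio overlapped between groups, at 0.200 and 0.233 against 0.223 and 0.258.

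Stat5a had the largest difference of the 9 genes with all 4 libraries, but its place above Stat4 depended on single libraries. Stat4 lay lower without DMSO replicate 2 (-0.90 against -0.83) and without GSI replicate 2 (-0.94 against -0.91). Stat5a (ENSMUSG00000004043, chr11:100859351-100885169, plus strand) is activated by GM-CSF, IL-3 and prolactin among others. Its level was 37.4 and 42.3 CPM with DMSO against 21.2 and 20.8 CPM with GSI. Every GSI value was well under every DMSO value, a log2 fold change of -0.92 ± 0.08 (SE, n = 2 per group; 95% interval -1.10 to -0.75; edgeR FDR 2.35e-08), or -47.3%. The log2 value stayed between -1.01 and -0.83 with any 1 library left out, and 92.2% of all genes tested had a smaller absolute log2 fold change. The summed level of 7 dendritic cell markers moved with it, from 186 and 179 CPM to 113 and 115 CPM, nearly all of it Clec9a, and their part in the result was not tested.

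Stat3 (ENSMUSG00000004040, chr11:100885098-100939540, minus strand), the factor that carries IL-10 and IL-6 family signals, meets Stat5a tail to tail, and their annotated ends share 72 bases on opposite strands. Its level was the highest in CPM, at 461 and 465 with DMSO against 386 and 413 with GSI. The groups did not overlap, and the log2 fold change was -0.21 ± 0.07 (95% interval -0.36 to -0.06; edgeR FDR 0.0221). As with Jak1, the call depended on single libraries: the edgeR FDR was 0.0804 without DMSO replicate 1, 0.0998 without DMSO replicate 2, 0.130 without GSI replicate 1 and 0.0107 without GSI replicate 2, and 0.0548 with upper quartile normalization. Stat3 was lower in each case.

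The Stat5a to Stat3 ratio within a library was 0.0811 and 0.0908 with DMSO against 0.0550 and 0.0502 with GSI. The log2 ratio differed by -0.71 between the groups, against a pooled SD of 0.11 between replicates, so the neighbouring genes did not move in proportion.

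Stat6 (ENSMUSG00000002147, chr10:127642986-127660957, plus strand), the factor of IL-4 and IL-13, had 266 and 272 CPM with DMSO against 211 and 223 CPM with GSI. Both GSI libraries were lower, with a log2 fold change of -0.31 ± 0.07 (95% interval -0.45 to -0.16; edgeR FDR 0.00133), or -19.3%. The log2 value stayed between -0.35 and -0.27 with any 1 library left out. Stat6 shares 40 exon bases with Nab2 on the opposite strand, which had 937 to 1533 counts per library. The Stat6 to Stat3 ratio was 0.576 and 0.584 with DMSO against 0.546 and 0.540 with GSI, a log2 difference of -0.10 that was small but larger than the spread between replicates.

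Stat4 (ENSMUSG00000062939, chr1:51987148-52107189, plus strand), the factor of IL-12, was the least abundant member. It had 223 and 264 counts with DMSO against 123 and 149 counts with GSI, or 5.18 and 4.65 CPM against 2.54 and 3.02 CPM. The groups did not overlap, and the log2 fold change was -0.82 ± 0.15 (SE, n = 2 per group; 95% interval -1.12 to -0.51; edgeR FDR 0.000136), with the widest interval of the members. With any 1 library left out it ranged from -0.94 to -0.70. The Stat4 to Stat3 ratio was 0.0112 and 0.0100 with DMSO against 0.00659 and 0.00730 with GSI.

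The levels of overlapping genes and of other cells stand beside the Stat4 result. Gm28177, a same-strand transcript that shares 1033 exon bases with Stat4, had 69 and 57 counts with DMSO against 51 and 35 with GSI, and reads from the shared bases cannot be assigned to one gene with certainty. Stat4 is best known from T and NK cells. The 8 T cell markers summed to 1.74 and 1.52 CPM with DMSO against 3.79 and 2.83 CPM with GSI, with Cd3g and Cd8b1 at 0 and Cd3d, Cd3e, Cd8a and Trac at 2 counts or fewer in each library. Nearly all of that sum was Lck, with 51 and 58 counts with DMSO against 131 and 105 with GSI, which was called higher (log2 fold change 1.14), and Cd4, with 23 and 26 against 49 and 33 counts, which was not called. The 6 NK cell markers summed to 1.09 and 0.758 CPM against 0.269 and 0.223 CPM, nearly all of it Klrd1, which was called lower (-1.86), in the direction of Stat4, with Ncr1, Eomes, Gzma and Prf1 at 0. The part of such cells in the Stat4 result was not tested.

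Stat2 was the only member of the 9 that was called higher with GSI. Stat2 (ENSMUSG00000040033, chr10:128270559-128292849, plus strand) lies on the same chromosome as Stat6, 609601 bases away, and encodes a subunit of ISGF3. It had 206 and 201 CPM with DMSO against 279 and 246 CPM with GSI. Both GSI libraries were above both DMSO libraries, with more spread between them, and the log2 fold change was 0.37 ± 0.07 (SE, n = 2 per group; 95% interval 0.22 to 0.53; edgeR FDR 0.000461), or 29.3%. The log2 value stayed between 0.28 and 0.46 with any 1 library left out. The Stat2 to Stat3 ratio moved from 0.446 and 0.431 with DMSO to 0.724 and 0.596 with GSI, a log2 difference of 0.58. Its ISGF3 partner Irf9 had 90.1 and 88.7 CPM with DMSO against 97.8 and 99.6 CPM with GSI, a log2 fold change of 0.14 that was not called (edgeR FDR 0.105).

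**Figure D3:**
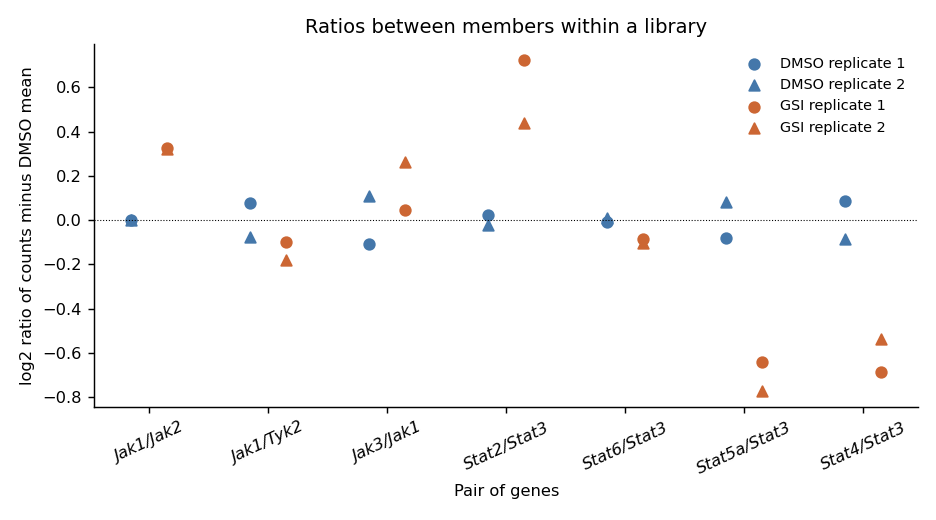
The log2 ratio of counts between 7 pairs of members within each library, minus the DMSO mean of that pair, with DMSO in blue and GSI in orange, circles for replicate 1 and triangles for replicate 2. Jak1 to Jak2 and Stat2 to Stat3 are higher in both GSI libraries, by 0.32 and 0.58 on average, Stat5a to Stat3 and Stat4 to Stat3 are lower by 0.71 and 0.61, and only Jak3 to Jak1 overlaps between the groups.

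To compare levels between genes, CPM was divided by the union of annotated exons in kb. With DMSO the order was Stat6 (61.1 ± 0.99 CPM per kb, SD, n = 2), Jak2 (56.0 ± 1.12), Stat3 (48.6 ± 0.33), Stat2 (34.3 ± 0.58), Jak1 (34.3 ± 0.68), Tyk2 (18.1 ± 0.98), Jak3 (9.99 ± 0.88), Stat5a (5.58 ± 0.49) and Stat4 (1.27 ± 0.10). Only Stat2 and Jak1 overlapped among neighbours in this order. With GSI the order was Stat6 (49.3 ± 1.96), Stat2 (44.3 ± 3.95), Stat3 (42.0 ± 2.03), Jak2 (39.0 ± 0.63) and Jak1 (29.9 ± 0.47), followed by the same last 4 genes, and only Stat2 and Stat3 overlapped among neighbours. Stat2 and Jak2 thus exchanged places in the order, Stat2 moving to place 2 and Jak2 to place 4. The first 5 places depend on the length used: with the longest transcript, or the longest protein-coding one, Stat3 (76.7 ± 0.51 with DMSO) stood first in both groups, and Stat2 moved from place 5 with DMSO to place 2 with GSI.

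The 4 kinases summed to 118 and 118 CPM per kb with DMSO and to 93.7 and 98.3 with GSI. Jak2 made up 48.0% and 46.6% of that sum with DMSO against 41.1% and 40.1% with GSI, while the share of Jak1 was 29.4% and 28.5% against 31.5% and 30.7%. The sum of the 5 STAT genes moved less, from 150 and 152 to 139 and 139. Within it the share of Stat2 was 23.1% and 22.3% with DMSO against 33.9% and 29.8% with GSI, and that of Stat6 was 40.2% and 40.7% against 34.4% and 36.4%.

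**Figure D4:**
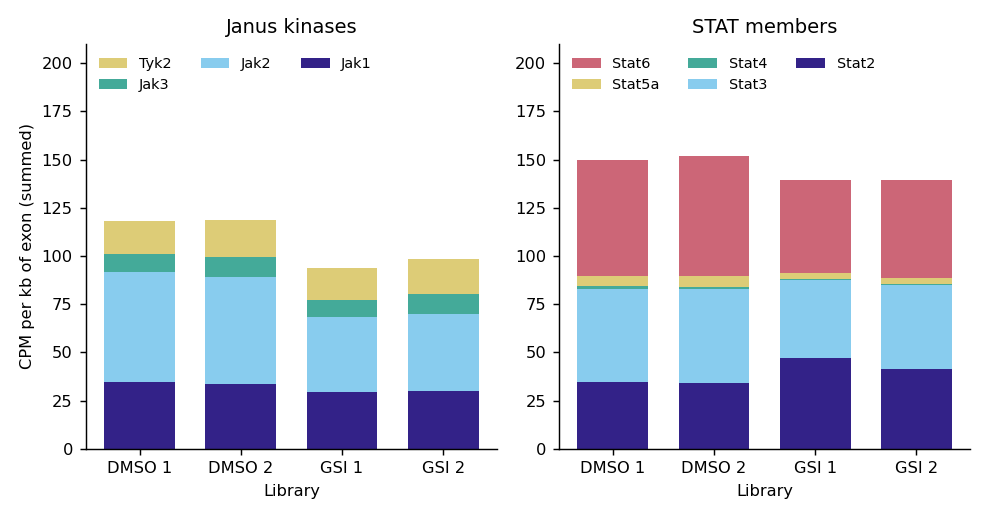
Levels per length (CPM per kb of the union of exons) of the 4 kinases (left) and the 5 STAT genes (right), stacked by gene in each library. The segment sizes depend on the length used. The kinase sum falls from about 118 to below 99, with the Jak2 segment shrinking most, and in the STAT sum the Stat2 segment grows while the Stat6 segment shrinks.

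Around the 9 genes, 184 genes in 18 lists of receptors, ligands, inhibitors, partners and target genes were described from the same fit, some of them in more than one list. Of these, 157 were tested, and 52 were lower and 45 higher, so 61.8% were called, with a median log2 fold change of 0.01. Over all genes tested the share was 40.8% (21.9% lower and 19% higher), or 48.1% of those averaging at least 10 CPM, and the counts of each list stand beside these shares as descriptions, with no test of any list.

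Receptor chains moved in both directions: of 27 tested, 7 were lower and 8 higher. Of 4 interferon receptor chains tested, 3 were lower, with a median of -0.29. Ifngr1, the binding chain of the IFNγ receptor, fell from 202 and 189 CPM to 124 and 131 CPM (log2 fold change -0.62, edgeR FDR 6.97e-07), and Ifnar1 fell from 152 and 156 CPM to 117 and 123 CPM (-0.36, edgeR FDR 0.000322). Ifnar2 fell by 0.22 on the log2 scale, Ifngr2, the chain that carries Jak2, had a log2 fold change of -0.01 and was not called, and Ifnlr1 was at 2 counts or fewer in every library and was not tested. Of the IL-10 receptor chains, Il10ra, which binds Jak1, fell by 0.38 (587 and 587 CPM against 447 and 454 CPM), and Il10rb, which binds Tyk2, had a log2 fold change of 0.07 that was not called.

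Of 5 gp130 family chains tested, 2 were lower and 1 was higher. The 2 lower chains were Lifr (-1.21) and Il6ra (-0.77), and the shared chain Il6st was not called. Of 7 common γ chain family receptors, 3 were higher and 1 lower, Il15ra rising by 0.87 and Il4ra, the IL-4 receptor chain, falling by 0.45. Of 4 common β chain family genes tested, 1 was called, Il3ra, which rose by 0.55. Of 3 IL-12 and IL-23 receptor chains, 2 were higher: Il12rb1, the shared chain that binds Tyk2, rose by 0.81, and Il23r rose from 0.186 and 0.264 CPM to 2.01 and 1.94 CPM. Csf3r, the G-CSF receptor, rose by 0.86, and was the 1 gene called of 2 tested among homodimeric and other receptors.

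Of 14 cytokine ligands tested, 9 were lower and 1 higher, with a median of -0.40 that was -0.20 without the low-count filter and -0.21 with DESeq2. The 2 with the largest called changes at a mean of at least 1 CPM were Csf2, which encodes GM-CSF and fell from 4.28 and 3.19 CPM to 1.18 and 0.587 CPM (-2.07), and Il10, which fell from 309 and 357 CPM to 79.6 and 110 CPM (-1.81). The 1 ligand that rose was Ifnb1, which encodes interferon β, from 10.2 and 13.1 CPM to 27.1 and 27.9 CPM (1.23). No count of Ifng, Il4, Il13, Il21 or Il3 was found in any library.

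Among inhibitors, 3 of 8 SOCS genes were lower and 1 was higher. Cish, a STAT5 target that curbs STAT5 signals, fell from 43.7 and 47.0 CPM to 20.3 and 23.6 CPM (-1.05, edgeR FDR 6.30e-09), Socs5 fell by 0.41 and Socs7 by 0.24. Socs1, an inhibitor of JAKs at interferon receptors, rose from 39.0 and 43.2 CPM to 58.7 and 54.5 CPM (0.46, edgeR FDR 7.46e-05). Socs3, the most abundant of them at 1567 and 1634 CPM with DMSO, had a log2 fold change of -0.01, and Socs2, Socs4 and Socs6 were not called either, at -0.06, 0.07 and 0.03. Of 4 PIAS genes, 2 were lower, Pias3 (-0.33) and Pias1 (-0.21). Of 11 phosphatases and other brakes, 4 were lower and 1 higher, with Usp18, which blocks the type I interferon receptor, rising by 0.71 and Ptprc, the phosphatase CD45, falling by 0.43. Of 13 partners and adaptors, 4 were lower and 4 higher, the largest being Ncoa1 (-0.61) and Sh2b2 (-0.50).

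Target lists of different STATs had medians on both sides of 0, and they share genes. Of 20 type I interferon (ISGF3) targets, 18 were higher and none lower, with a median of 0.54 and values from 0.10 to 0.80, and Bst2 (0.80) and Isg15 (0.79) had the largest. Of 20 type II interferon (GAS) targets, 10 were higher and 1 lower, with a median of 0.19, led by Nos2 (3.30) and Ido1 (1.41). The other 4 lists had more lower calls: 9 of 20 STAT3 targets (median -0.17; Myc -1.37, Ccnd1 -0.55), 8 of 14 STAT5 targets (median -0.33; Id1 -2.24, Osm -1.08), 9 of 13 STAT6 targets tested (median -0.75; Irf4 -1.54, Mrc1 -1.29) and 3 of 8 STAT4 targets tested (median -0.05; Hlx -0.98, Il18rap -0.29). The STAT4 target median was -0.12 without DMSO replicate 1 and -0.015 with upper quartile normalization. In these 4 lists 1 STAT3 target and 1 STAT6 target were higher and no STAT5 or STAT4 target was. Many of these genes respond to other factors too, and what moved them was not tested.

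**Figure D5:**
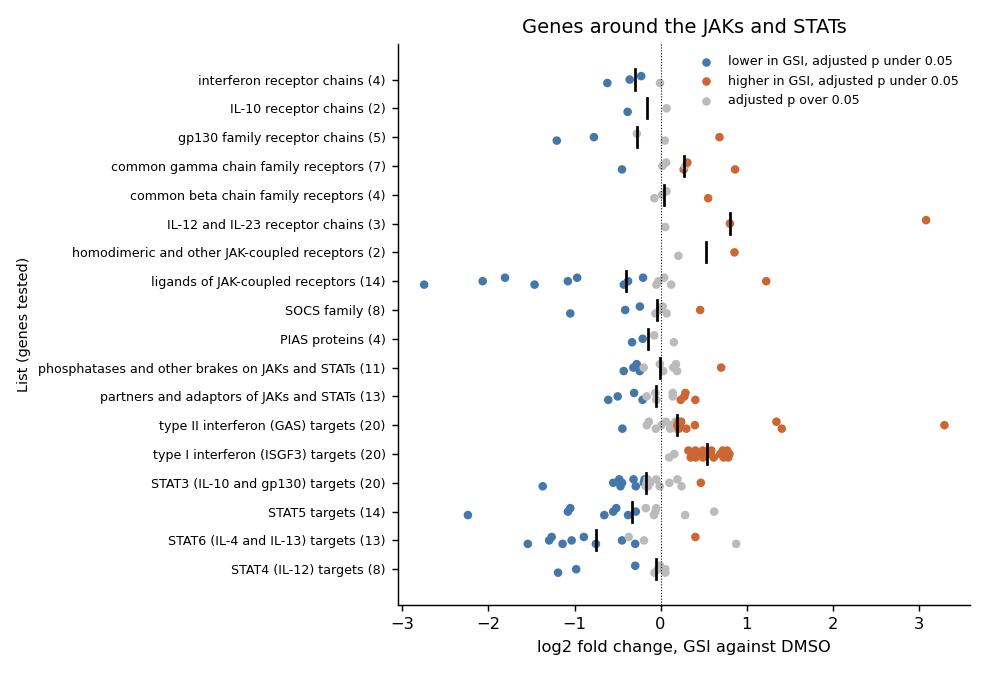
The log2 fold change between GSI and DMSO of each gene tested in the 18 lists, blue where lower and orange where higher at an FDR under 0.05 and grey otherwise, with a black bar at the list median and the number tested in brackets. The type I interferon targets all lie above 0 with a median of 0.54, and the STAT6 targets have the lowest median, -0.75.

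For each called member, the gene nearest in pattern was sought among 155 genes averaging at least 1 CPM, from these lists and the other members. The measure was the Euclidean distance of log2 CPM, centred on each gene's mean, over the 4 libraries. The nearest genes were Mcl1 for Jak1 (distance 0.015), Ccnd1 for Jak2 (0.090), Nmi for Stat2 (0.077), Nfil3 for Stat3 (0.061), Il6ra for Stat4 (0.14), Kdm6b for Stat5a (0.048) and Ifnar1 for Stat6 (0.050). With 4 libraries in 2 groups, such a distance reflects mostly a like log2 fold change.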

How the data were processed

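The submitters' processing notes name bcl2fastq, STAR 2.5.0a, Picard and HTSeq, with the builds mm9 and mm10, and the study's methods give stranded mRNA libraries aligned to mm10. The HTSeq mode and strand setting are not given in the sources used here. The deposited values are raw counts per gene from the authors, with 16 columns for 4 libraries of 4 runs each. Runs were summed per library. Members, lists and tests were chosen with earlier results of these data known. Genes passing edgeR's default filter were normalized by TMM and fitted with edgeR 4.0.16 (R 4.3.3) by the quasi-likelihood test, the kind of test the study's methods name, with group as the only term, and checked on simulated data. CPM used TMM-scaled library sizes, except the 3-count limits, which used total counts. Alternatives were DESeq2 1.42.0, other normalizations and filters, a likelihood ratio test, a replicate block, runs as samples and leaving out each library.

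Positions and lengths came from GENCODE M21 (GRCm38), which held 98.9% of the gene IDs, and promoters from RefSeq. Named genes were all 9 members, in each pathway list the 2 largest called changes averaging at least 1 CPM, all interferon and IL-10 receptor chains and SOCS genes, and the list gene nearest in pattern to each called member. Ifnb1, Irf9, Il6st, Clec9a, Klrd1, Lck, Cd4 and Ighm, other cell type markers, genes named because they were at 0 and genes overlapping a member were added after their values were seen.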

Additional observations from a re-analysis of the deposited data

How the results depend on the processing

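Each member was refitted under 13 alternatives, of which 9 changed a setting and 4 left out a library. Jak2, Stat2, Stat4, Stat5a and Stat6 kept their direction and their call in all 13. Jak1 (log2 fold change -0.16) and Stat3 (-0.18) lost the call under upper quartile normalization, and each lost it without DMSO replicate 1, DMSO replicate 2 or GSI replicate 1. The ranges over the left-out libraries were -0.22 to -0.18 for Jak1, -0.26 to -0.16 for Stat3 and, with a change of sign, -0.17 to 0.08 for Jak3. Jak3 had a log2 fold change of 0.05 without DMSO replicate 2 and of 0.075 without GSI replicate 1. In a leave-out fit the lone library of a group is assumed to vary like the other group. The number of members called was 5 or 7 in every setting, 5 also at an FDR under 0.01, and those past both thresholds rose from 0 to 2 with 1.5-fold in place of a log2 value of 1.5.

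With the replicate block, 7 members were called, as without it, and 6444 genes in all against 5392. Replicate numbers are shared between groups, but nothing states that they pair the samples, and the deviations of same-numbered libraries correlated at 0.155 over all genes tested and at 0.249 over the 7581 genes averaging at least 10 CPM. Over all genes, DESeq2 called 4063 and a fit of the 16 runs as samples, which treats runs of a library as replicates, called 7582.

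Some list medians also moved by more than 0.1. Without a low-count filter the gp130 family median was -0.52, the ligand median -0.20 and that of homodimeric and other receptors -0.48, because more genes entered, and DESeq2 gave -0.53, -0.21 and -0.46; the last list was at 0.53 with 2 genes tested, so its sign changed. The ligand median was -0.54 without GSI replicate 1 and -0.27 without GSI replicate 2. Without DMSO replicate 2 the common γ chain median was 0.076 and the gp130 median -0.16, and the median of homodimeric and other receptors was 0.84 without DMSO replicate 1 and 0.90 without GSI replicate 1. With the 16 runs as samples the medians of STAT5 and STAT6 targets were -0.44 and -0.89. With at least 10 counts in every library, 1 chain fewer left the IL-12 and IL-23 receptor median at 0.43 and the STAT6 target median was -0.60. Medians close to 0 changed sign with the library left out, from -0.06 to 0.15 for the common β chain family, -0.15 to 0.02 for SOCS genes, -0.12 to 0.02 for phosphatases and other brakes and -0.08 to 0.05 for partners, and those of SOCS genes (0.00056) and brakes (0.028) were above 0 with upper quartile normalization, so none of these 4 lists has a stable direction. The cause of the normalization differences was not tested.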
